A study of Homo sapiens with 55 samples.

Results

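The genes described here are 50 genes of G2 phase and mitosis, chosen by name as regulators or machinery of cell division: cyclins, CDK1 and their regulators, mitotic kinases, spindle checkpoint and chromosomal passenger proteins, kinetochore proteins, kinesins, spindle and cytokinesis proteins, anaphase regulators and chromosome structure proteins. They were found through the gene symbols of the platform annotation, brought up to date through their gene identifiers. All 50 genes had a detected probe on the Illumina HumanHT-12 v3 arrays, among 10467 named genes with one, and 78 of their 80 probes were detected. A probe was kept if its detection p-value was under 0.01 on at least 3 arrays.

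The study set SCL60 cells, a HEK293 line with a stably transfected rat receptor for gonadotropin-releasing hormone (GnRH) at a high level, against parental HEK293 cells, in which the labels call the receptor undetectable and the cells unresponsive. HEK293 is a human embryonic kidney line. Cells received the GnRH agonist triptorelin at 100 nM or a vehicle of 20% propylene glycol. Triptorelin was given to SCL60 cells for 0.5, 1, 2, 8 and 24 h and to HEK293 cells for 1 and 24 h. Controls were taken at 0, 1, 8 and 24 h from SCL60 and at 0, 1 and 24 h from HEK293. All cells grew on Matrigel, and SCL60 medium alone held G418, so the lines differ in a drug as well as in the receptor. The 55 arrays fall into 14 groups of 4, except the SCL60 1 h controls with 3, and nothing in the labels says whether replicates came from separate cultures, so the errors measure the spread between these samples.

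Cells enter mitosis when CDK1 bound to cyclin B is freed of inhibitory phosphates by CDC25 phosphatases. Polo-like and Aurora kinases then build the spindle, kinesins move and shape its microtubules, and kinetochores join chromosomes to it. The spindle checkpoint holds back the anaphase promoting complex (APC/C) until every chromosome is attached, after which cyclin B and securin are destroyed and separase opens cohesin. Most of these genes are transcribed in a wave from late S phase to mitosis, which the transcription factors B-MYB and FOXM1 drive and the DREAM complex represses outside it. In an unsynchronised culture their summed level therefore follows the share of cells in G2 and mitosis as well as the transcript per cell, and in these bulk samples fewer cells of a phase and less RNA per cell cannot be told apart.

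Signals were background corrected, quantile normalised and put on a log2 scale. A gene is represented by its brightest detected probe, and "called" means an adjusted p below 0.05 in limma's test with the Benjamini-Hochberg adjustment over all 16016 detected probes. Median raw signals ran from 44 to 75 per array, and 11766 to 14763 probes were detected per array. The brightest probe was detected on every array for 47 of the 50 genes. The exceptions were MKI67, detected on 49 arrays in all, NUF2 on 54 and NCAPH on 19. Of 7 markers of HEK293 and embryonic kidney lines on the platform, 5 were detected on every array and 1 on no array. Of the fibroblast, blood and endothelial markers, 0 were detected on every array, while COL1A1, CD14, HBA2 and PECAM1 were detected on at least 3 arrays. The number of arrays limits the precision: 4 per group.

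After 8 h of triptorelin, 10 of the 50 genes were called lower in SCL60 cells and none higher. With the replicate number as a block, 12 were called lower and 3 higher (CDK1, CCNB1 and ANLN). The genes that fell were HMMR, KIF20A, MKI67, CENPM, CENPF, KIF2C, PTTG1, BIRC5, CCNB2 and CDC20, by 0.39 to 1.20 on the log2 scale. Among all 10467 named genes, 14% fell and 11.6% rose in this comparison, and the margin of the 50 genes over or under these shares was not tested. Over all probes, 15 of the 78 probes of these genes fell and 2 rose, and 12.3% of the 16016 detected probes fell. At an unadjusted p under 0.05 the 50 genes gave 12 lower and 2 higher, against 3919 of the 10467 named genes in either direction. The median log2 difference was -0.062 over the 50 genes and -0.027 over all named genes. By role, 0 of the 4 genes of the mitotic kinase group and 0 of the 5 checkpoint genes passed limma's test, also at an unadjusted p under 0.05, against 2 of 7 kinetochore and centromere genes, 2 of 8 kinesins, 2 of 4 anaphase regulators, 1 of 8 genes of mitotic entry, 1 of 4 passenger proteins, 1 of 5 spindle and cytokinesis proteins and 1 of 5 chromosome structure proteins. Differences between roles were not tested, and the roles are small.

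**Figure D1:**
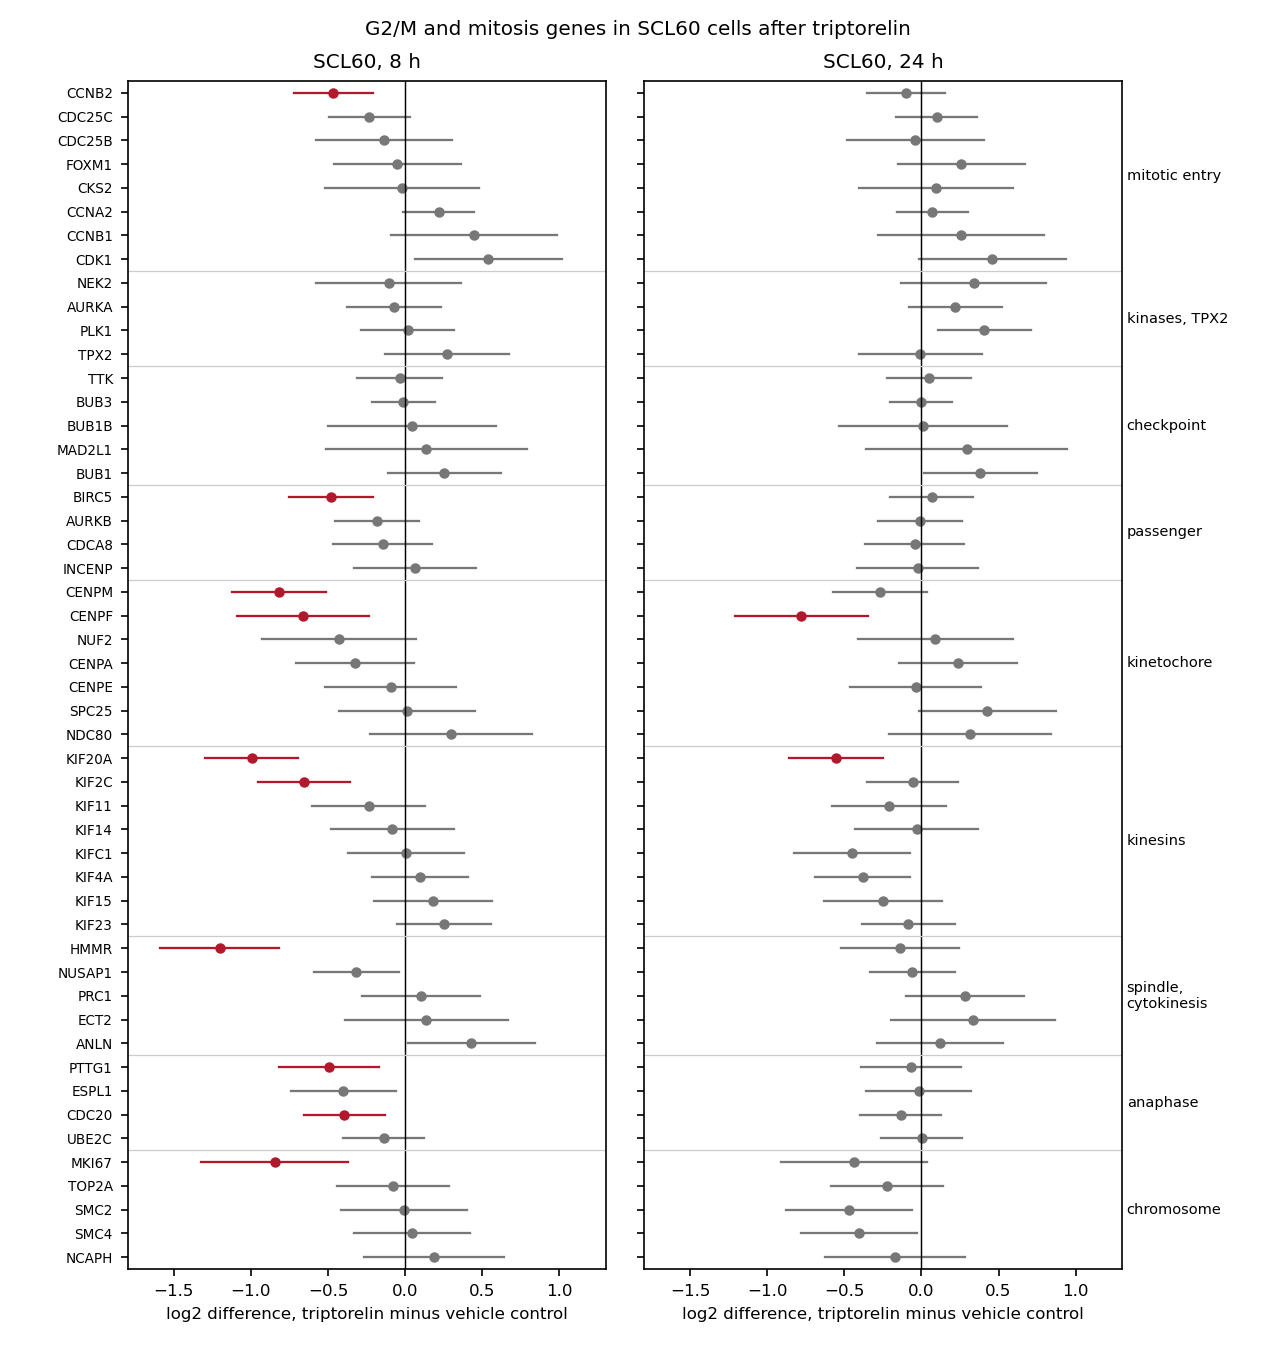
Log2 difference between triptorelin and vehicle control in SCL60 cells at 8 h (left) and 24 h (right) for the 50 genes, grouped by role. Points are fitted differences and bars 95% confidence intervals. Red marks genes with a limma adjusted p below 0.05, which are 10 genes at 8 h and 2 genes at 24 h, all on the lower side.

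HMMR, a microtubule-binding protein of the spindle poles and receptor for hyaluronan, had the deepest fall. Its normalised log2 signals at 8 h were 8.62, 8.82, 8.75 and 8.56 with triptorelin and 10.22, 10.02, 9.68 and 9.65 with vehicle. Every treated array was below every control array. The mean fell from 9.89 ± 0.28 to 8.69 ± 0.12 (SD, n = 4 each), a 2.30-fold lower level (log2 difference -1.20, SE 0.19, limma adjusted p = 3.37e-06). Its second probe gave a difference of -0.90 (SE 0.23, limma adjusted p = 0.0034).

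Of the 8 kinesins, 2 fell. KIF20A, a kinesin of the central spindle needed for cytokinesis, read 9.35, 9.75, 9.49 and 9.60 with triptorelin and 10.36, 10.46, 10.57 and 10.78 with vehicle. The treated arrays lay below all controls, at a log2 difference of -0.996 (SE 0.15, 1.99-fold lower, limma adjusted p = 1.38e-06). KIF2C, which takes microtubules apart at centromeres to correct faulty attachments, read 8.75, 9.37, 8.42 and 9.00 with triptorelin and 9.65, 9.62, 9.24 and 9.68 with vehicle. One treated array of KIF2C overlapped the lowest control, and the log2 difference was -0.66 (SE 0.15, limma adjusted p = 0.00072). The other kinesins did not pass the test: KIF11, the motor that separates spindle poles, stood at -0.24 (SE 0.18) and KIF23, the kinesin of the centralspindlin complex, at 0.25 (SE 0.15). KIF14, KIFC1, KIF4A and KIF15 lay between -0.08 and 0.18.

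Of the 7 kinetochore and centromere genes, CENPM and CENPF fell. CENPM, a subunit of the constitutive centromere network, read 9.31, 9.65, 8.70 and 9.86 with triptorelin against 10.25, 10.10, 10.21 and 10.25 with vehicle. The 2 groups did not overlap, although the treated arrays were spread more widely than the controls. The log2 difference was -0.82 (SE 0.15, limma adjusted p = 4.81e-05), and the 2 other CENPM probes gave -1.02 and -0.76, both called. CENPF, a large protein of the outer kinetochore that builds up in G2, read 9.05, 9.50, 9.52 and 8.90 with triptorelin against 9.39, 10.33, 10.10 and 9.79 with vehicle. The lowest control overlapped the treated arrays, and the log2 difference was -0.66 (SE 0.21, limma adjusted p = 0.020). CENPF did not pass without control replicate 2 or 3 or treated replicate 1 or 4, at -0.52, -0.59, -0.60 and -0.55. NDC80, NUF2 and SPC25 encode subunits of the NDC80 complex, which grips microtubules, and none of their brightest probes passed, at 0.30 (SE 0.26), -0.43 (SE 0.25) and 0.01 (SE 0.22). CENPA, the centromeric histone H3 variant, stood at -0.32 (SE 0.19) and CENPE, a kinetochore motor, at -0.09 (SE 0.21).

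Securin and the APC/C activator were the anaphase genes that fell. PTTG1, which encodes securin, the inhibitor of separase, read 12.25, 12.21, 11.39 and 12.39 with triptorelin and 12.65, 12.70, 12.29 and 12.56 with vehicle. The highest treated array of PTTG1 exceeded the lowest control (log2 difference -0.49, SE 0.16, limma adjusted p = 0.021), and the second PTTG1 probe gave -0.14 (SE 0.24) and was not called. CDC20, the activator of the APC/C, read 11.81, 12.11, 11.71 and 11.90 against 11.93, 12.46, 12.32 and 12.41, a log2 difference of -0.39 (SE 0.13, limma adjusted p = 0.023). One control array of CDC20 lay within the treated range. PTTG1 did not pass without treated replicate 3 (-0.27) or control replicate 1 (-0.46) or 2 (-0.44). CDC20 did not pass without control replicate 2, 3 or 4 or treated replicate 1 or 3, at -0.33 to -0.38. ESPL1, which encodes separase, stood at -0.40 (SE 0.17, limma adjusted p = 0.081), and UBE2C, the ubiquitin-conjugating enzyme of the APC/C, at -0.14 (SE 0.13).

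One cyclin, one passenger protein and one chromosome protein made up the rest. CCNB2, which encodes cyclin B2, read 10.92, 10.99, 10.37 and 10.85 with triptorelin and 11.37, 11.26, 11.15 and 11.20 with vehicle. BIRC5, which encodes survivin of the chromosomal passenger complex, read 9.33, 9.81, 9.60 and 9.52 against 9.89, 10.25, 10.03 and 10.03. Both genes had all treated arrays below all controls, with log2 differences of -0.46 (SE 0.13, limma adjusted p = 0.0053) for CCNB2 and -0.48 (SE 0.13, limma adjusted p = 0.0068) for BIRC5. CCNB2 did not pass without treated replicate 3, at -0.33 (limma adjusted p = 0.063, with 0.0016 to 0.23 over all alternatives run). MKI67, the proliferation antigen Ki-67 that coats mitotic chromosomes, read 5.34, 6.29, 6.00 and 5.87 against 6.04, 6.90, 7.11 and 6.83, so the lowest control overlapped the treated arrays. Its log2 difference was -0.84 (SE 0.24, limma adjusted p = 0.0068), and its probe was dim. AURKB, INCENP and CDCA8, the kinase, scaffold and borealin subunits that join survivin in the passenger complex, stood at -0.18 (SE 0.14), 0.06 (SE 0.20) and -0.15 (SE 0.16), none of them called. TOP2A, the topoisomerase that untangles chromosomes, stood at -0.08 (SE 0.18), and the condensin subunits SMC2, SMC4 and NCAPH at -0.01, 0.04 and 0.19.

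**Figure D2:**
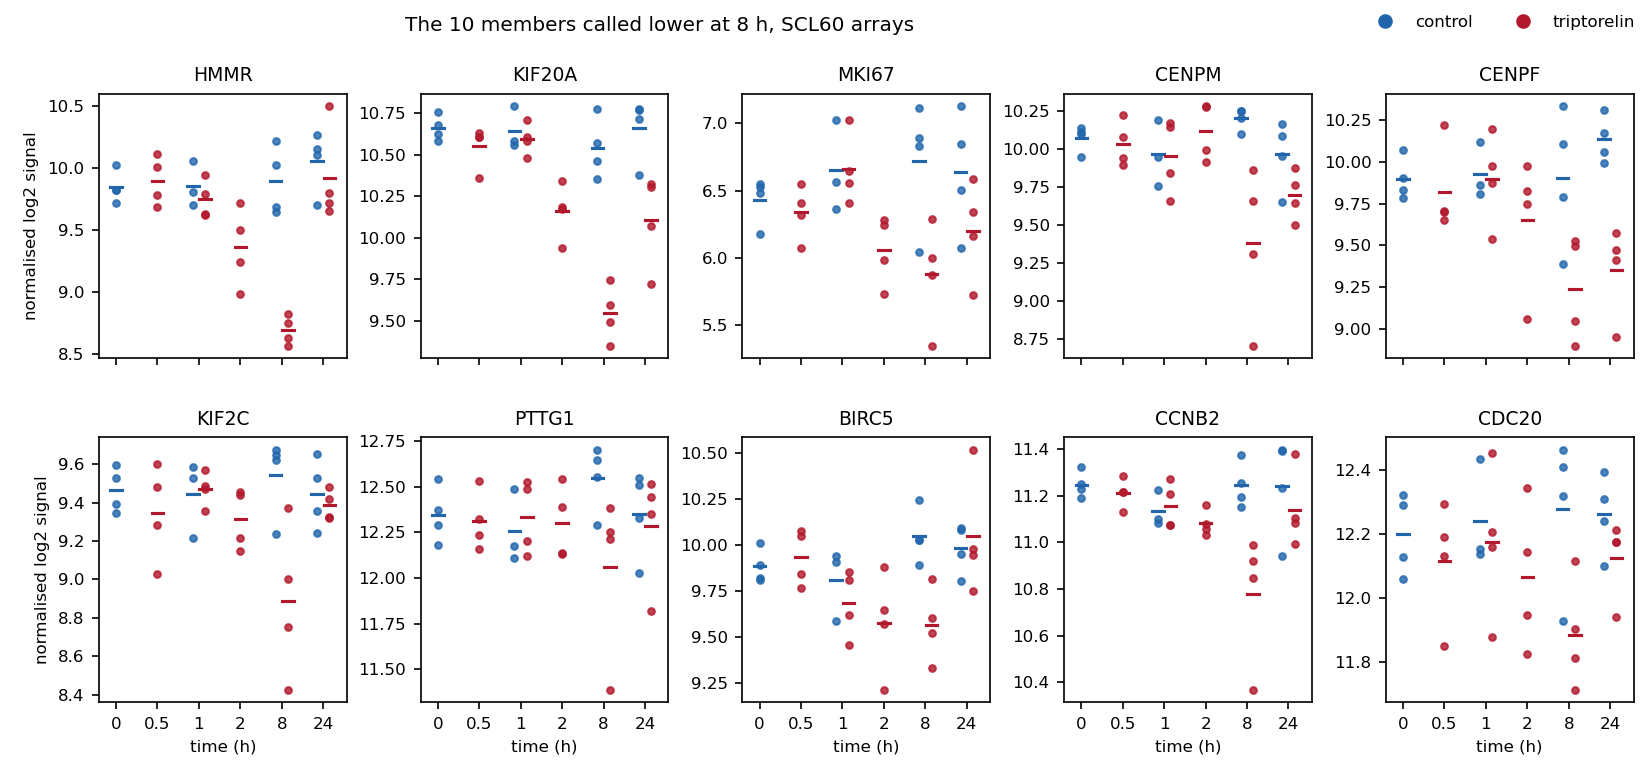
Normalised log2 signal of the 10 genes that fell at 8 h, on every SCL60 array, against time in hours (spaced evenly, not to scale). Points are arrays, bars are group means, blue is control and red triptorelin. HMMR at 8 h lies between 8.56 and 8.82 with triptorelin and between 9.65 and 10.22 with vehicle.

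The genes that start mitosis did not fall together. CDK1, the kinase at the centre of the switch, read 11.19, 10.88, 10.85 and 10.63 with triptorelin and 10.68, 10.44, 10.07 and 10.22 with vehicle at 8 h. All but the highest control lay below the treated arrays, and the log2 difference of 0.54 (SE 0.24, limma adjusted p = 0.092) did not pass with group means alone. With the labelling or the hybridisation batch as a term CDK1 passed, and with the chip as a random block it did not. CDK1 was higher with triptorelin in 4 of 4 same-numbered pairs and passed with the replicate block (limma adjusted p = 0.0032). Its second probe gave 0.65 (SE 0.29, limma adjusted p = 0.097). CCNB1, which encodes the main cyclin of mitotic entry, stood at 0.44 (SE 0.27, limma adjusted p = 0.24, or 0.030 with the block) beside the fall of CCNB2, and CCNA2, which encodes cyclin A2, at 0.22 (SE 0.11). The phosphatases CDC25B and CDC25C, the CDK adaptor CKS2 and the transcription factor FOXM1 stood at -0.14, -0.23, -0.02 and -0.05, none of them called.

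No gene of the mitotic kinase group or of the checkpoint was called at 8 h by its brightest probe, which does not show that they were unchanged. In the mitotic kinase group the differences ran from -0.11 to 0.27. The kinases CDK1 and CHEK2 were counted in other groups and are described with those. PLK1, the Polo-like kinase of mitotic entry, spindle poles and cytokinesis, read 8.02, 8.61, 8.02 and 8.36 with triptorelin and 8.25, 8.31, 8.13 and 8.25 with vehicle. The treated arrays lay on both sides of the controls, and the difference was 0.02, with a 95% interval from -0.29 to 0.32. AURKA, the Aurora kinase of the spindle poles, its activator TPX2 and the centrosomal kinase NEK2 stood at -0.07 (SE 0.15), 0.27 (SE 0.20) and -0.11 (SE 0.23). In the checkpoint, the kinases BUB1 and TTK, the pseudokinase BUB1B, BUB3 and MAD2L1, which binds CDC20, lay between -0.04 and 0.25. BUB1 was the farthest from 0, with 9.72, 9.86, 10.14 and 9.52 under triptorelin and 9.37, 9.83, 9.56 and 9.47 under vehicle, which overlap.

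Of the 50 genes, 23 had more than 1 detected probe, and some probes of 1 gene differed at 8 h. The brightest NUF2 probe stood at -0.43, while the other rose by 0.80 (SE 0.30, limma adjusted p = 0.046). The brightest BUB3 probe stood at -0.01, while 1 of its other probes rose by 0.81 (SE 0.22, limma adjusted p = 0.0061). CDC25C ran the other way: its brightest probe was not called at -0.23 (SE 0.13), while the other 2 fell by 0.60 (SE 0.15, limma adjusted p = 0.0026) and 0.43 (SE 0.13, limma adjusted p = 0.0091). The second BIRC5 probe gave -0.42 (SE 0.18, limma adjusted p = 0.075). Which transcript forms these probes read was not analysed here.

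**Figure D3:**
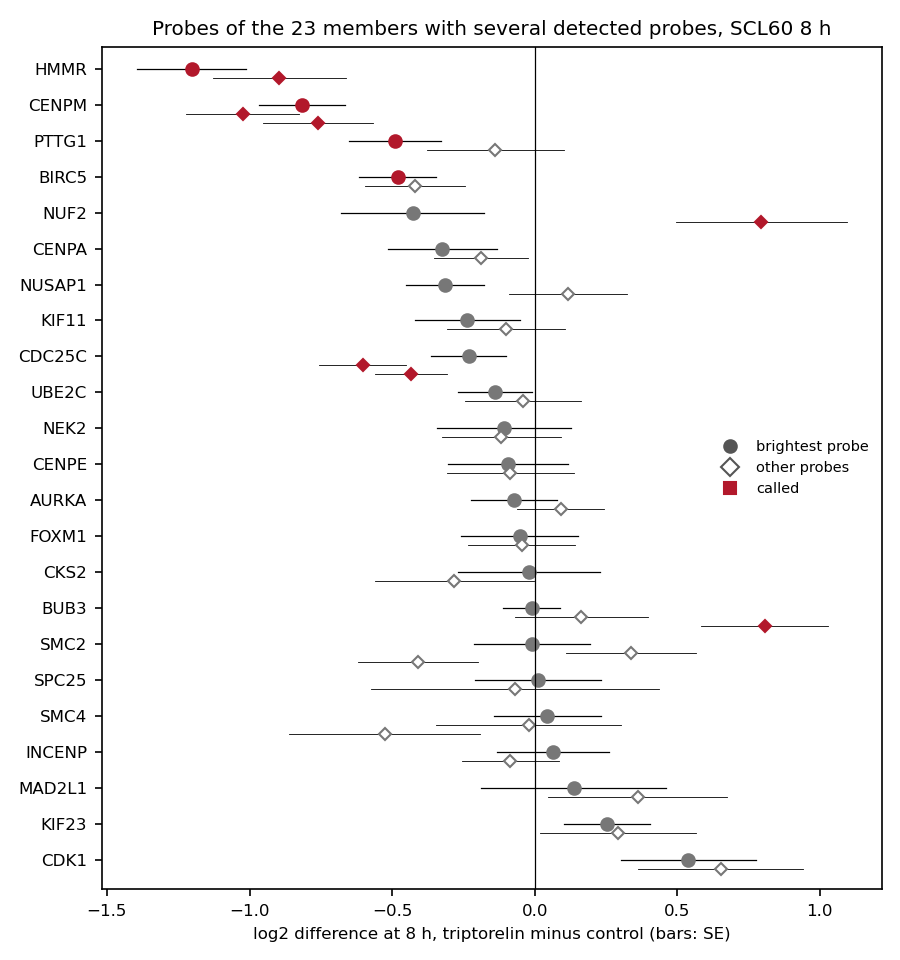
Log2 difference at 8 h in SCL60 cells for each detected probe of the 23 genes with several probes. Circles are the brightest probe, diamonds the others, bars the SE, and red marks called probes. HMMR and CENPM have every probe called lower, while NUF2 and BUB3 each have 1 probe called higher.

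The 2 groups did not overlap at 8 h for 5 genes, HMMR, KIF20A, CENPM, BIRC5 and CCNB2, all with triptorelin below control. Over all named genes 21.3% did not overlap. Same-numbered treated and control arrays deviated together, so the replicate number was also fitted as a block. With it 15 genes passed, 12 lower and 3 higher, against 20.0% lower and 16.9% higher of all named genes in that fit. The added genes were CDK1, CCNB1 and the cytokinesis scaffold ANLN (limma adjusted p = 0.028) on the higher side and ESPL1 (0.020) and the spindle protein NUSAP1 (0.029) on the lower side. All 10 falls had the same sign in both hybridisation batches: HMMR stood at -1.14 in batch 1 and -1.31 in batch 2, KIF20A at -0.90 and -1.22, and CENPM at -0.74 and -0.94. Batch 2 held 1 treated and 2 control arrays. With the 8 h groups alone in the fit, 3 genes passed (HMMR, KIF20A and CENPM), and within batch 1 and batch 2 the counts were 5 and 4.

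Promoter windows were read from RefSeq (GRCh38.p14), from 250 bases before to 50 bases after the gene start, for 42 of the 50 genes. AURKA, BIRC5, BUB3, CENPM, FOXM1, TPX2, TTK and UBE2C were not matched. The windows were searched for the cell cycle genes homology region (CHR), the element bound by the DREAM and MuvB complexes, in the forms TTTGAA, on either strand, and TTTAAA, which reads the same on both, and for the CCAAT box bound by NF-Y, on either strand. A CHR of either form was in 36 of 42 windows (85.7%), against 24.3% of 27305 windows of all genes. A CCAAT box was in 31 of 42 (73.8%), against 35.7% of all windows. Among the genes that fell at 8 h, 8 of 8 matched windows held a CHR and 7 of 8 held 2 or more CCAAT boxes. Among the other 34 matched genes, 28 held a CHR and 12 held 2 or more CCAAT boxes. Of all windows 11.3% held 2 or more CCAAT boxes. The difference between the genes that fell and the others was not tested, and the former were chosen by their calls in these data. Overlapping CCAAT letters on opposite strands were counted separately. The 50 genes were named for their role in division, and many such promoters share these letters. A match is a description and not a site.

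The windows of the 3 genes with the deepest falls at 8 h and of the 2 with the largest positive differences are shown, so that the elements can be set side by side in genes that differed most at 8 h. The HMMR window is chr5:163460382-163460681, plus strand. The KIF20A window is chr5:138178862-138179161, plus strand. The MKI67 window is chr10:128126374-128126673, minus strand. The CDK1 window is chr10:60778081-60778380, plus strand, and the CCNB1 window is chr5:69166900-69167199, plus strand.
HMMR: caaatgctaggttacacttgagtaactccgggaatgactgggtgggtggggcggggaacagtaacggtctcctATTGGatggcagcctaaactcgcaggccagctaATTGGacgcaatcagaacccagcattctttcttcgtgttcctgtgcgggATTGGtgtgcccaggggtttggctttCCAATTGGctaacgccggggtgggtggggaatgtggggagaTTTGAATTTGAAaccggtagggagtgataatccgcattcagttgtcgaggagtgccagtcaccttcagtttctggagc
KIF20A: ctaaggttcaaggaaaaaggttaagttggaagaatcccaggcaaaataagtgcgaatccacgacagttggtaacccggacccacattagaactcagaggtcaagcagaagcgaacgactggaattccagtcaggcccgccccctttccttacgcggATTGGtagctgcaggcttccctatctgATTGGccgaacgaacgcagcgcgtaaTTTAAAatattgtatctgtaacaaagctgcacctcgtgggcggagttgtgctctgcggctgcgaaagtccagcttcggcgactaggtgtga
MKI67: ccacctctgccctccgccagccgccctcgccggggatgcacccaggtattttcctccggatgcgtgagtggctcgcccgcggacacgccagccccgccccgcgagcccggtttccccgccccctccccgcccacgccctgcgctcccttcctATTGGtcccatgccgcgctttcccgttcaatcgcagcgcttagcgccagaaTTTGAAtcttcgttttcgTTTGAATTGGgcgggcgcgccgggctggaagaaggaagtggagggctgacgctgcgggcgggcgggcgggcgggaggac
CDK1: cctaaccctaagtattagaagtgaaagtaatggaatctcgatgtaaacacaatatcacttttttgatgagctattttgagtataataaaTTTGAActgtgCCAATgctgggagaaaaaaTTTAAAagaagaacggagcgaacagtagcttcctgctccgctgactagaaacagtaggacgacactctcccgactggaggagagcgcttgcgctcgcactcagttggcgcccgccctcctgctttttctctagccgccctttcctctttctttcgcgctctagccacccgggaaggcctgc
CCNB1: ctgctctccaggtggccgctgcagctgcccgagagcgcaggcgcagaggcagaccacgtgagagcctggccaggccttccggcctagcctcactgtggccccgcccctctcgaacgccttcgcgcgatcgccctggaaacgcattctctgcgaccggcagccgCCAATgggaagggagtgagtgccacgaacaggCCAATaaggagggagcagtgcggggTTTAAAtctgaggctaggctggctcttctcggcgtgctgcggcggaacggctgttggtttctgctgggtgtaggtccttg
Capitals mark both forms of the CHR and the CCAAT box, on either strand. In HMMR, a CHR starts 28 and again 22 bases before the gene start, and 5 CCAAT letters are counted, of which 1 pair overlaps on opposite strands. In MKI67 the CHR and a CCAAT form overlap. KIF20A and CCNB1 hold the TTTAAA form, 41 and 30 bases before the start, and 2 CCAAT forms each, although KIF20A fell at 8 h and CCNB1 did not. In CDK1 the CHR forms lie 161 and 131 bases before the start.

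At 24 h, 2 of the 50 genes were lower with triptorelin and none higher, against 5.94% lower and 5.03% higher among all named genes. At an unadjusted p under 0.05, 6 were lower and 2 higher, against 2528 of 10467 named genes in either direction. The genes were CENPF and KIF20A, both of which had also fallen at 8 h. CENPF read 8.96, 9.47, 9.57 and 9.41 with triptorelin and 10.06, 10.31, 9.99 and 10.17 with vehicle, with no overlap. Its log2 difference was -0.78 (SE 0.21, 1.72-fold lower, limma adjusted p = 0.012). KIF20A read 9.72, 10.33, 10.07 and 10.31 against 10.38, 10.77, 10.77 and 10.72, again with no overlap. Its log2 difference was -0.55 (SE 0.15, 1.47-fold lower, limma adjusted p = 0.011). Without the first treated replicate neither passed, at -0.65 (limma adjusted p = 0.076) for CENPF and -0.42 (0.094) for KIF20A. Over all alternatives run the adjusted p ran from 0.00087 to 0.11 for CENPF and from 0.00073 to 0.36 for KIF20A.

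The median over the 50 genes at 24 h was -0.014 and over all named genes -0.019. The kinase and checkpoint genes lay mostly above 0 at 24 h, with none called. Differences between roles at 24 h were not tested. PLK1 read 8.38, 8.31, 8.16 and 8.44 with triptorelin and 7.96, 8.01, 7.83 and 7.85 with vehicle. Every treated PLK1 array was above every control, yet the log2 difference of 0.41 (SE 0.15, limma adjusted p = 0.081) did not pass. AURKA and NEK2 stood at 0.22 (SE 0.15) and 0.34 (SE 0.23) and TPX2 at -0.01 (SE 0.20). BUB1 read 9.99, 10.18, 9.92 and 9.82 against 9.72, 9.83, 9.74 and 9.10, with 1 control array just above the lowest treated one, and its difference was 0.38 (SE 0.18, limma adjusted p = 0.21). The other checkpoint genes lay between -0.002 and 0.29.

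By their brightest probes all 8 kinesins had negative differences at 24 h, of which KIF20A alone passed, with a median of -0.23. Of the 50 genes 28 had negative differences at 24 h. The share of all named genes below 0 was not counted, so the signs by role are a description. The second probes of KIF23 and KIF11 stood at 0.10 (SE 0.27) and -0.15 (SE 0.21). KIFC1, a minus-end directed kinesin, stood at -0.45 (SE 0.19) and KIF4A, a chromosome-bound kinesin, at -0.38 (SE 0.15). The chromosome structure genes were also below 0, from -0.17 for NCAPH to -0.47 for SMC2, with none called. SMC2 arrays did not overlap between the groups for the brightest probe. The other SMC2 probes stood at -0.15 (SE 0.23) and -0.10 (SE 0.21), and those of SMC4 at 0.21 (SE 0.32) and -0.18 (SE 0.34). In the kinetochore group CENPF alone passed, SPC25 stood at 0.43 (SE 0.22) and NDC80 at 0.31 (SE 0.26). CDK1 read 11.37, 10.90, 10.44 and 10.55 with triptorelin and 10.81, 10.56, 10.08 and 9.97 with vehicle, which overlap, at a difference of 0.46 (SE 0.24, limma adjusted p = 0.25).

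The count at 24 h moved with the fit. With the replicate number as a block, 6 genes passed, 4 lower and 2 higher, against 10.2% lower and 8.71% higher of all named genes in that fit. The added genes were CDK1 (limma adjusted p = 0.022) and PLK1 (0.036) on the higher side and KIFC1 (0.018) and KIF4A (0.041) on the lower side. In hybridisation batches 1 and 2 CENPF stood at -0.67 and -1.10 and KIF20A at -0.52 and -0.66, with 1 array per group in batch 2. At 24 h 3 genes lay wholly below the controls and 1 above, while 13.9% of all named genes did not overlap.

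**Figure D4:**
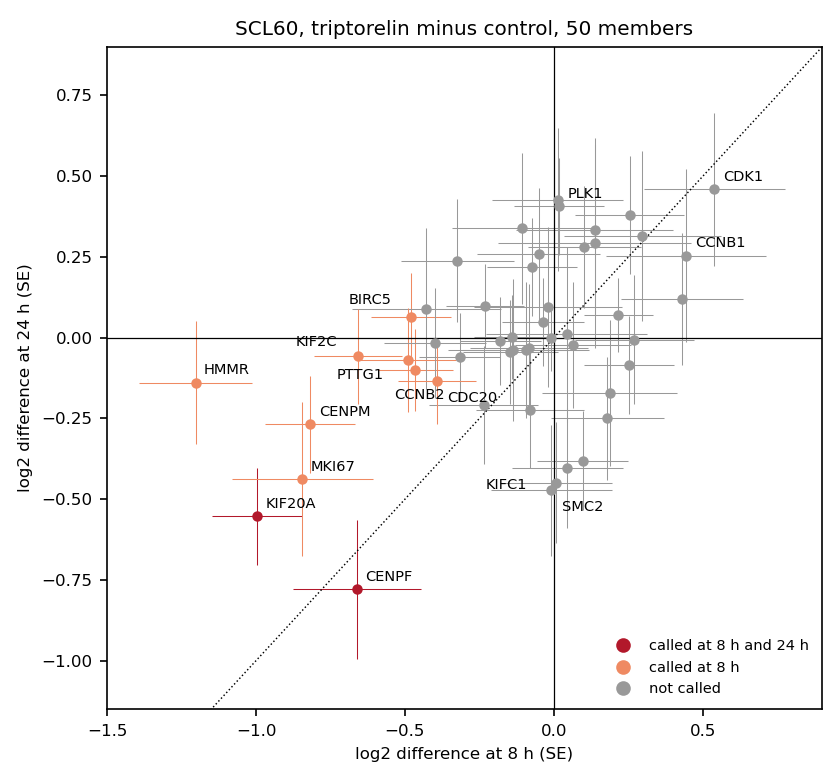
Log2 difference at 24 h against that at 8 h in SCL60 cells for the 50 genes, with SE bars and a dotted line of equality. HMMR lies at -1.20 at 8 h and -0.14 at 24 h, while CENPF lies near the line at -0.66 and -0.78.

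The change of the effect between 8 h and 24 h was tested as a contrast of its own. By brightest probes HMMR alone of the 50 genes passed. Its difference was -1.20 at 8 h and -0.14 at 24 h, a change of 1.06 (SE 0.27, limma adjusted p = 0.017). Of all named genes 2.95% passed in either direction. The second HMMR probe changed by 0.89 (SE 0.33, limma adjusted p = 0.15) and was not called. The brightest CDC25C probe was not called either, but its other probes passed, at 0.85 (SE 0.22, limma adjusted p = 0.017) and 0.65 (SE 0.18, limma adjusted p = 0.031). HMMR at 24 h read 10.50, 9.80, 9.65 and 9.72 with triptorelin and 10.26, 10.10, 10.15 and 9.70 with vehicle, so the groups overlapped. Of the 10 genes that fell at 8 h, 9 were less negative at 24 h, with CENPF the exception; since they were chosen by their fall at 8 h, this count is a description and no sign of a changed effect. BIRC5 was at 0.06 at 24 h, and its change of 0.54 (SE 0.19, limma adjusted p = 0.12) passed with the replicate block (limma adjusted p = 0.046). The change of KIF20A was 0.44 (SE 0.21, limma adjusted p = 0.32), and those of KIF2C and CENPM were 0.60 (SE 0.21, limma adjusted p = 0.12) and 0.55 (SE 0.21, limma adjusted p = 0.18). The HMMR call was lost without control 24 h replicate 4, treated 24 h replicate 1 or control 8 h replicate 1, where the change was 0.95, 0.87 and 0.96.

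Before 8 h, no gene of the 50 was called. The comparisons at 0.5, 1 and 2 h share the 3 control arrays of 1 h, and no controls of 0.5 or 2 h were used. At 0.5 h, 0 of the 50 had an unadjusted p under 0.05, against 142 of 10467 named genes, and 0.105% of all named genes were called. At 1 h, 1 of the 50 had an unadjusted p under 0.05, against 245 of 10467 named genes, and 0.583% of all were called. At 2 h, 10 of the 50 had an unadjusted p under 0.05, all lower, against 1251 of 10467 named genes in either direction. With the adjustment 1.61% of all named genes were called. The median at 2 h was -0.17 over the 50 and -0.036 over all named genes. HMMR at 2 h read 8.98, 9.50, 9.24 and 9.71 against 9.81, 9.70 and 10.05 in the 1 h controls, a difference of -0.49 (SE 0.21, limma adjusted p = 0.33). KIF20A read 9.94, 10.34, 10.18 and 10.19 against 10.56, 10.58 and 10.80, with all treated arrays below the controls, a difference of -0.49 (SE 0.16, limma adjusted p = 0.16). With the replicate block CDCA8 at -0.47 (limma adjusted p = 0.015) and CENPA at -0.54 (0.039) passed at 2 h.

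**Figure D5:**
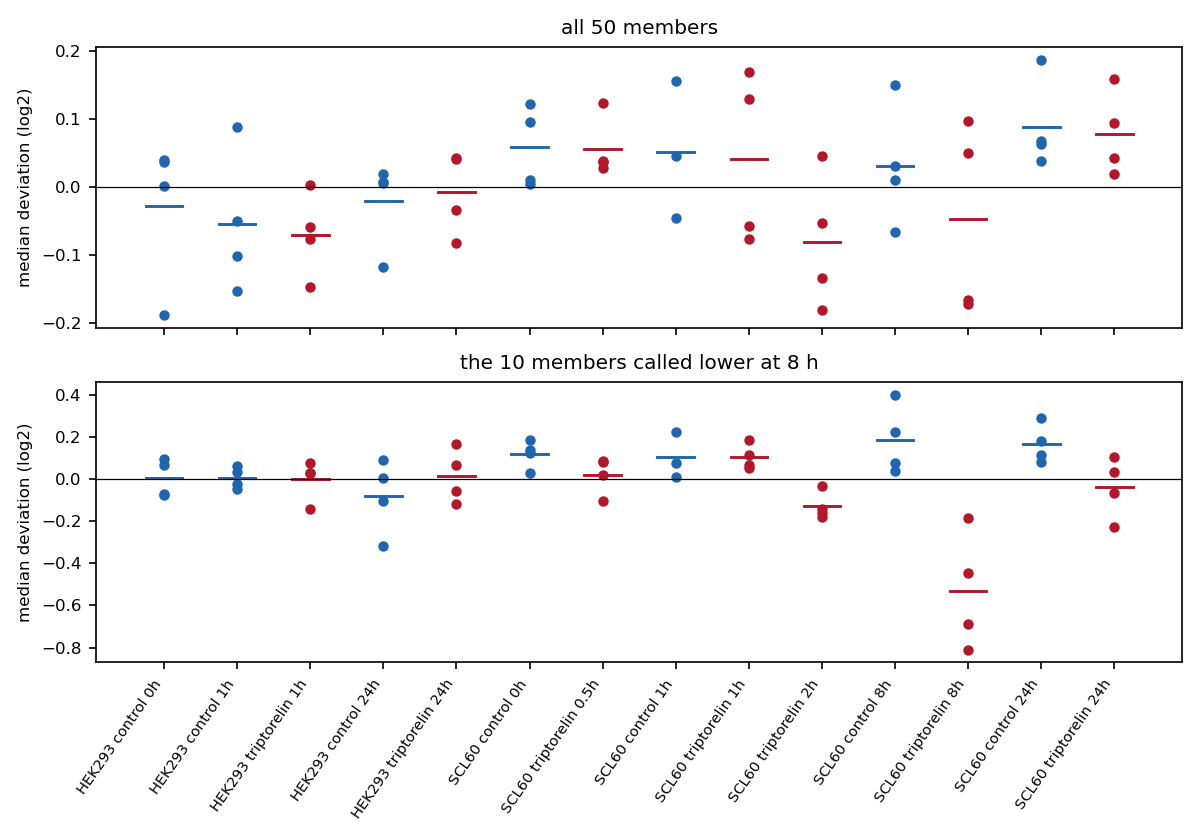
Median, over the 50 genes (top) and over the 10 genes that fell at 8 h (bottom), of each array's deviation in log2 signal from each gene's mean over all arrays. Points are arrays, bars group means, blue control and red triptorelin; the lower panel is a description, since its genes were chosen by their fall at 8 h.

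In parental HEK293 cells triptorelin called 0 of the 50 genes at 1 h and 0 at 24 h, with 0% of all named genes called in either comparison. At an unadjusted p under 0.05, 1 of the 50 was found at 1 h and 0 at 24 h. Over the 10467 named genes the counts were 205 and 217. KIF20A in HEK293 at 24 h read 10.47, 10.45, 10.68 and 10.42 with triptorelin and 10.09, 10.38, 10.62 and 9.99 with vehicle, a difference of 0.23 (SE 0.15). The difference between the effects of triptorelin in SCL60 and in HEK293 at 24 h was tested for all genes, of which 4.10% passed in either direction. KIF20A alone of the 50 passed, at -0.79 (SE 0.21, limma adjusted p = 0.024), and CENPF stood at -0.97 (SE 0.30, limma adjusted p = 0.063). KIF20A did not pass without SCL60 control replicate 3, SCL60 treated replicate 1, HEK293 control replicate 1 or 4 or HEK293 treated replicate 3, at -0.66 to -0.75. No 8 h arrays of HEK293 were analysed here, so the 8 h falls could not be compared between the lines.

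Without triptorelin, the lines differed in 4 of the 50 genes at 0 h. Over all named genes 12.3% were higher and 7.97% lower in SCL60. The count of 4 became 10 with the labelling batch as a term, 8 with the hybridisation batch, 7 with the chip as a random block, 7 within hybridisation batch 2 and 7 without HEK293 control replicate 4. The mitotic phosphatase CDC25B read 11.04, 11.21, 11.41 and 11.23 in SCL60 and 9.69, 10.58, 10.61 and 10.62 in HEK293, a log2 difference of 0.85 (SE 0.22, limma adjusted p = 0.0041). KIF2C was higher by 0.52 (SE 0.15, limma adjusted p = 0.0093) and UBE2C by 0.50 (SE 0.13, limma adjusted p = 0.0044). The second UBE2C probe gave 0.24 (SE 0.20, limma adjusted p = 0.47) and was not called. With the mean of all probes of a gene UBE2C lost its call and CENPM gained one. CENPM was not called by its brightest probe, and its other probes stood at -0.64 (SE 0.19, limma adjusted p = 0.014) and -0.48 (SE 0.20, limma adjusted p = 0.086). BIRC5 read 9.82, 10.01, 9.89 and 9.81 in SCL60 and 10.56, 10.57, 10.60 and 10.45 in HEK293, a difference of -0.66 (SE 0.13, limma adjusted p = 0.00025). The second BIRC5 probe stood at -0.84 (SE 0.18, limma adjusted p = 0.00033). Without HEK293 control replicate 1, CDC25B stood at 0.62 and KIF2C at 0.43, and neither passed. For each of CDC25B, KIF2C, UBE2C and BIRC5, which were picked by their call, the arrays of the lines did not overlap. The share of all named genes without overlap was not counted at 0 h, so this is a description. Controls at 24 h against 0 h called 0 of the 50 in SCL60 and 0 in HEK293. Of all named genes 0% were called in either line. In each line 1 of the 50 had an unadjusted p under 0.05, against 136 of 10467 named genes in SCL60 and 497 in HEK293.

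Other genes of the same machinery were counted from lists by function. They are to be read against these shares of all named genes: 14% lower and 11.6% higher at 8 h, 5.94% and 5.03% at 24 h. At an unadjusted p under 0.05, 2528 of the 10467 named genes passed at 24 h in either direction. Of 30 tested kinetochore and centromere genes outside the 50, 3 fell and 2 rose at 8 h, both below those shares. SPC24, a further NDC80 complex subunit, fell by 0.99 (SE 0.20, limma adjusted p = 0.00023), KNTC1, of the checkpoint complex that brings dynein to kinetochores, fell by 0.69 (SE 0.14), and SGO1, the protector of centromeric cohesin, rose by 0.72 (SE 0.13). At 24 h 1 fell and 2 rose, led by SKA1, a microtubule-binding kinetochore protein, at 0.75 (SE 0.13). Of 27 other spindle, kinesin and cytokinesis genes 2 fell at 8 h, STMN1, a microtubule destabiliser, and CKAP2L, a spindle protein, and 0 passed limma's test at 24 h, with 2 at an unadjusted p under 0.05. Of 26 other APC/C, cohesin and condensin genes, 2 fell and 2 rose at 8 h, among them the APC/C subunit ANAPC4 (-0.58) and the APC/C inhibitor FBXO5 (0.55), and 0 passed at 24 h, with 6 at an unadjusted p under 0.05. Of 19 other G2/M kinases, phosphatases and cyclins, 1 fell and 2 rose at 8 h, where the checkpoint kinase CHEK2 stood at -0.64 (SE 0.22), and at 24 h 1 fell and 1 rose. CHEK2 was the one that fell, at -0.70 (SE 0.22), and the phosphatase CDC14A rose, at 0.67 (SE 0.19, limma adjusted p = 0.014). The medians of these lists at 8 h were -0.037, 0.032, 0.043 and 0.006.

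Of 21 genes listed under the DREAM and MuvB complexes and G2/M transcription factors, 1 fell and 4 rose at 8 h. The list also held CDKN1A, which is neither a subunit of these complexes nor a transcription factor and is 1 of the 4. CDKN1A, which encodes the CDK inhibitor p21, rose by 1.43 (SE 0.31, limma adjusted p = 0.00056), NFYA, a subunit of the CCAAT-binding factor NF-Y, by 0.79 (SE 0.17, limma adjusted p = 0.00038), and E2F5, a repressive E2F of the DREAM complex, by 0.58 (SE 0.13, limma adjusted p = 0.00063). At 24 h 0 of the 21 passed limma's test, with 6 at an unadjusted p under 0.05, against 2528 of 10467 named genes. Of 41 genes of G1/S and DNA replication, the neighbouring wave of the cycle, 8 fell and 1 rose at 8 h, with a median of -0.15, and 5 fell and 0 rose at 24 h, with a median of -0.18. POLA2, a subunit of the replicative primase complex, was at -0.72 (SE 0.13) at 8 h, and LIG1, the replicative DNA ligase, at -0.87 (SE 0.17) at 24 h.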

How the data were processed

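Biotin-labelled RNA of 55 samples was measured on Illumina HumanHT-12 v3 arrays. The authors deposited for 48803 probes on each array an intensity and a detection p-value, non-normalized per the file headers; all 55 signal columns hold the same kind of value, an intensity, and scanner settings are not given in the sources used here. The authors' deposited table of normalized signal values was used as an alternative. Intensities were corrected with limma's normexp method (limma 3.58.1, R 4.3.3; offset 16, which narrows differences of dim probes), quantile normalized and turned into log2 values. 1 mean per group was fitted over all 55 arrays with eBayes and an intensity trend, and p-values were adjusted over all 16016 detected probes. A gene is represented by its detected probe of highest mean signal; of the detected probes 13690 have 1 symbol, 2 several and 2324 none. The members and lists were chosen with earlier results of these data known. Every member may be named; array values are given for members called at 8 h or 24 h and for the member with the largest difference in each role without a call. The array values of CDK1 and of the 2 h, HEK293 and 0 h comparisons were added after values had been seen. From other lists up to 3 called genes with the largest difference were eligible. In SCL60, same-numbered arrays' deviations from their group means were correlated. The correlations ran from 0.23 to 0.41 at 8 h and from 0.42 to 0.62 at 24 h, and were over 0.1 in every pair also at 0.5, 1 and 2 h. The replicate number was therefore also fitted as an alternative, as 1 block term over all 55 arrays. The main calls, SEs and intervals rest on group means without this term, so they are not paired. Labels give labelling, chip and hybridisation batches, which were tried as terms or blocks. The fit was tested on simulated data with known differences.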

Additional observations from a re-analysis of the deposited data

Results flagged for a closer look

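In 3 groups of 4 arrays 1 array lay far from the others for a gene that fell at 8 h. KIF20A read 10.38 in SCL60 control replicate 1 at 24 h against 10.72 to 10.77 in the others. KIF2C read 9.24 in SCL60 control replicate 3 at 8 h against 9.62 to 9.68. CDC20 read 11.94 in SCL60 treated replicate 3 at 24 h against 12.17 to 12.21. These 3 came from 40 groups looked at, and chance gives such a gap in about 1 group in 20.

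By brightest probes, effects differed between times or lines in a test of the difference itself for HMMR and KIF20A. The HMMR effect was 1.06 higher at 24 h than at 8 h. The KIF20A effect at 24 h was -0.79 in SCL60 relative to HEK293. For the change from 8 h to 24 h the second HMMR probe was not called, while the CDC25C probes other than the brightest were.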

How the results depend on the processing

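Under the alternatives run, no called difference changed sign. HMMR, KIF20A and CENPM kept their call at 8 h under all 22 alternatives, with HMMR between -1.31 and -1.05, KIF20A between -1.22 and -0.90 and CENPM between -0.98 and -0.59. CDC20, PTTG1 and CENPF lost their 8 h call under 9, 8 and 7 of the 22. The members called at 8 h numbered 3 with only the groups compared, 5 within hybridisation batch 1 and 4 within batch 2, where the single treated array is assumed to vary like the others, and 8 to 11 with 1 replicate left out. With the replicate block they numbered 15, as given above. With the labelling batch as a term they numbered 13, with the hybridisation batch as a term 12 and with the chip as a random block 11. With no filter on dim probes they numbered 7.

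At 24 h the count was 6 with the replicate block, 4 with the labelling batch as a term, 1 within hybridisation batch 1, 0 within batch 2, 1 with only the groups compared, and 0 to 2 with 1 replicate left out. The member count of the effect at 24 h minus that at 8 h was 0 with no filter on dim probes, 2 with the mean of all probes of a gene, 2 with the replicate block, 0 within each hybridisation batch, 0 with only the groups compared, and 0 to 2 with 1 replicate left out. At 2 h it was 2 with the replicate block and 1 with the labelling batch. For the SCL60 effect minus the HEK293 effect at 24 h it was 0 with no filter on dim probes, 4 with the replicate block, 2 with the chip as a random block, 2 with the labelling batch, 0 within each hybridisation batch, 0 with only the groups compared, and 0 to 2 with 1 replicate left out. For SCL60 minus HEK293 at 0 h it was 16 with the replicate block, 7 with the chip as a random block, 10 with the labelling batch, 8 with the hybridisation batch as a term, 7 within hybridisation batch 2, and 4 to 7 with 1 replicate left out. In the comparisons that involve HEK293 the replicate number was not read as a pairing, since not every correlation of same-numbered arrays was over 0.1. These correlations ran from 0.09 to 0.69 for HEK293 at 1 h and from 0.06 to 0.47 at 24 h. Between the lines at 0 h they ran from 0.07 to 0.54. Beyond the calls given, the block moved none of the other counts. The cause of these shifts was not tested, except that the within-batch fits and those of only the groups compared have fewer arrays.

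The number of arrays and the dim signal of some probes limit these calls: NCAPH and MKI67 were not detected on every array. The authors' normalized values, no background correction and cyclic loess each gave 10 genes at 8 h and 2 at 24 h.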
